A study of Mus musculus with 12 samples.

Results

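The Toll-like receptors (TLRs) described here are Tlr1, Tlr2, Tlr4, Tlr6, Tlr7, Tlr8, Tlr9 and Tlr13, together with the co-receptor Cd14 and the adaptor Myd88. They were chosen by gene symbol, and all 10 symbols were found among the 29737 genes of the deposited count table. The cells were neutrophils from the bone marrow of female wild-type C57BL/6 mice, cultured for 24 h, and their mRNA was sequenced. PBS was the vehicle of the control group, and the other groups received taurocholic acid (TCA), glycocholic acid (GCA) or tauro-β-muricholic acid (Tβ-MCA). The 4 groups had 3 samples each, named by replicate numbers 3, 5 and 6 for PBS and 3, 4 and 5 for every bile acid. The sample labels give 200 μM for TCA and GCA and 10 μM for Tβ-MCA. A second source gives Tβ-MCA the same concentration as TCA, and this conflict could not be settled. The labels describe cells positive for Ly6G, and the methods describe a separating medium followed by a neutrophil enrichment kit. Neither source says whether samples came from separate mice, so the p-values measure the spread between these samples, which may be technical.

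TLRs are pattern recognition receptors of innate immune cells. Receptors at the cell surface (TLR4, TLR2 and its partners TLR1 and TLR6) bind lipopolysaccharide or bacterial lipopeptides, and CD14 hands these ligands to them. Receptors of endosomes (TLR7, TLR8, TLR9 and TLR13) bind nucleic acids, TLR13 being the mouse receptor for bacterial ribosomal RNA. All receptors named here signal through MyD88, which recruits IRAK kinases and leads to NF-κB activation and cytokine transcription. Neutrophils carry most of these receptors and release cytokines in response to their ligands.

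Positions are those of the deposited table, in mouse build GRCm38. Tlr1 (chr5:64924679-64933563) and Tlr6 (chr5:64952031-64960097) are neighbours on the minus strand, with 18467 bases between them. Tlr8 (chrX:167242696-167264329) and Tlr7 (chrX:167304929-167330558) are neighbours on the minus strand as well, with 40599 bases between them. Tlr13 lies on the plus strand at chrX:106143204-106160493, Tlr9 on the plus strand at chr9:106222598-106226883, Tlr4 on the plus strand at chr4:66827584-66930284 and Tlr2 on the minus strand at chr3:83836272-83841767. Myd88 lies on the minus strand at chr9:119335934-119341411, and the position of Cd14 is given with its values. The span of Myd88 overlaps that of Acaa1a on the other strand, and the sources used here do not say whether the counting used the strand. No other member overlaps another gene of the table.

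The bases before the annotated start were searched for motifs of myeloid and inflammatory promoters, and they are shown for the members with a match. RefSeq windows on GRCm38.p6 were given for 7 of the members, in 9 windows, and Tlr4, Tlr7 and Cd14 are named only. The letters GAGGAA, the core that the myeloid factor PU.1 binds, were searched on both strands of the 250 bases before each RefSeq start, and they were found for Tlr1, Tlr8, Tlr9 and Tlr13, which is 4 of the 7 genes. The same letters are present in 23.3% of all 32851 windows. This share counts windows and not genes, and a gene with more than 1 window, as Tlr1 and Tlr6 here, can match in any. The NF-κB consensus was found for Tlr2 only among these 7 genes, as 2 overlapping matches, and in 7.25% of all windows. The consensus was searched by its usual letters on both strands. Tlr6 and Myd88 had no match of either kind and are not printed. The Myd88 window and 1 window each of Tlr1 and Tlr6 lay within the deposited gene spans, so they do not describe bases before the positions given above. A match describes letters and not a site in use. Capitals mark GAGGAA or its complement on the other strand (Tlr8) and the NF-κB consensus (Tlr2), and each line ends before the gene start of the RefSeq or the deposited annotation, whichever comes first, 5′ to 3′ on the strand of the gene.
Tlr13, chrX:106143025-106143203, plus strand: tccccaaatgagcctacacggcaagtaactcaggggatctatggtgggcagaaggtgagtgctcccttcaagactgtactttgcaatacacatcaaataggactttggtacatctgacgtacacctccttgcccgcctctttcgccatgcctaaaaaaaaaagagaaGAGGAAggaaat
Tlr8, chrX:167264330-167264579, minus strand: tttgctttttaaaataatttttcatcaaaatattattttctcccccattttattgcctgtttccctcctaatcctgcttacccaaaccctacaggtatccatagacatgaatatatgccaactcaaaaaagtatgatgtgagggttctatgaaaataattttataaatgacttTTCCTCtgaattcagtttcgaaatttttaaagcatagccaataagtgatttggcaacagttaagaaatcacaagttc
Tlr9, chr9:106222348-106222597, plus strand: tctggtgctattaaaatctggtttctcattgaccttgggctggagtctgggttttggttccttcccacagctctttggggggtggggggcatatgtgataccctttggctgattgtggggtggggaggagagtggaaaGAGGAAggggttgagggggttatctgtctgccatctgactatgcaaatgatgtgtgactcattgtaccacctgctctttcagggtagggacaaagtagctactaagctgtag
Tlr1, chr5:64933564-64933808, minus strand: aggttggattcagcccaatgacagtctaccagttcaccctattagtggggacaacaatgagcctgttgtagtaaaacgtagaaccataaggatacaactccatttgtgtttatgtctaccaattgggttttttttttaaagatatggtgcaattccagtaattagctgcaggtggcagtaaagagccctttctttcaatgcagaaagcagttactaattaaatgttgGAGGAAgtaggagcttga
Tlr2, chr3:83841768-83841858, minus strand: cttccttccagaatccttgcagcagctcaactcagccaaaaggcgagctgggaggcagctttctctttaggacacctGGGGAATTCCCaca

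Every member was detected in every sample and passed the filter on low counts, which left 16761 genes for testing. Library totals lay between 32757389 and 41375925 counts, and the counts of the members ranged from 120 (Tlr9 in Tβ-MCA replicate 3) to 6263 (Tlr13 in TCA replicate 4). Neutrophil markers had the largest sum of the marker lists, with 12 of them at 39881 to 61349 CPM. The 12 monocyte and macrophage markers summed to 434 to 1382 CPM. Such sums do not measure purity. In PBS, the neutrophil markers Ly6g and Csf3r had 17.8 to 21.4 CPM and 851 to 1095 CPM. The monocyte markers Ccr2 and F13a1 had 37.3 to 51.2 CPM and 519 to 584 CPM there. Summed markers of T and NK cells (7 genes found) and of erythroid cells (6 genes) stayed at or below 4.18 and 2.92 CPM, with Klrb1c under 3 counts in all samples of each group. With Tβ-MCA edgeR called 0 genes of either list, while Nkg7 of the T and NK list met the thresholds of the study (log2 fold change -1.75) and was called lower without Tβ-MCA replicate 5. DESeq2 called 1 gene of the T and NK list lower. Tβ-MCA replicate 5 stood apart from Tβ-MCA replicates 3 and 4, and counts of calls without it are given beside those that it changed.

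Endosomal Tlr13 was the most abundant member transcript in these neutrophils and Tlr9 the least abundant. Levels were compared between genes in the deposited RPKM values, which are corrected for gene length. In PBS, Tlr13 stood at 33.9 ± 3.34 RPKM (mean ± SD, n = 3), followed by Myd88 at 27.8 ± 1.83, Tlr7 at 18.6 ± 2.14 and Cd14 at 18.1 ± 2.16 RPKM. The surface pair of Tlr2 (11.7 ± 2.09 RPKM) and Tlr6 (9.49 ± 1.57 RPKM) came next, ahead of Tlr8 (6.06 ± 0.532 RPKM), the lipopolysaccharide receptor Tlr4 (5.10 ± 0.302 RPKM) and Tlr1 (3.95 ± 0.311 RPKM). Tlr9, the receptor for unmethylated CpG DNA, had 2.01 ± 0.248 RPKM. Neighbours in this order did not overlap between their PBS samples, except that Tlr7 overlapped Cd14 and Tlr2 overlapped Tlr6.

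The order of the mean levels was the same in all 4 groups. Tlr13 exceeded Myd88 in every group without overlap, and Tlr9 remained below Tlr1 in all 12 samples, with 1.05 to 2.57 RPKM against 3.66 to 4.78 RPKM. In Tβ-MCA and in GCA the samples of Cd14 overlapped those of Tlr2, the next gene in the order. Only in Tβ-MCA did Myd88 overlap Tlr7 and Tlr8 overlap Tlr4. Between the TLR2 partners, Tlr6 exceeded Tlr1 in every group, the Tlr1 to Tlr6 ratio of RPKM lying between 0.373 and 0.476 over the PBS samples and between 0.406 and 0.460 over the Tβ-MCA samples. The Tlr13 to Tlr9 ratio ranged from 13.6 in a GCA sample to 31.8 in a Tβ-MCA sample.

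**Figure D1:**
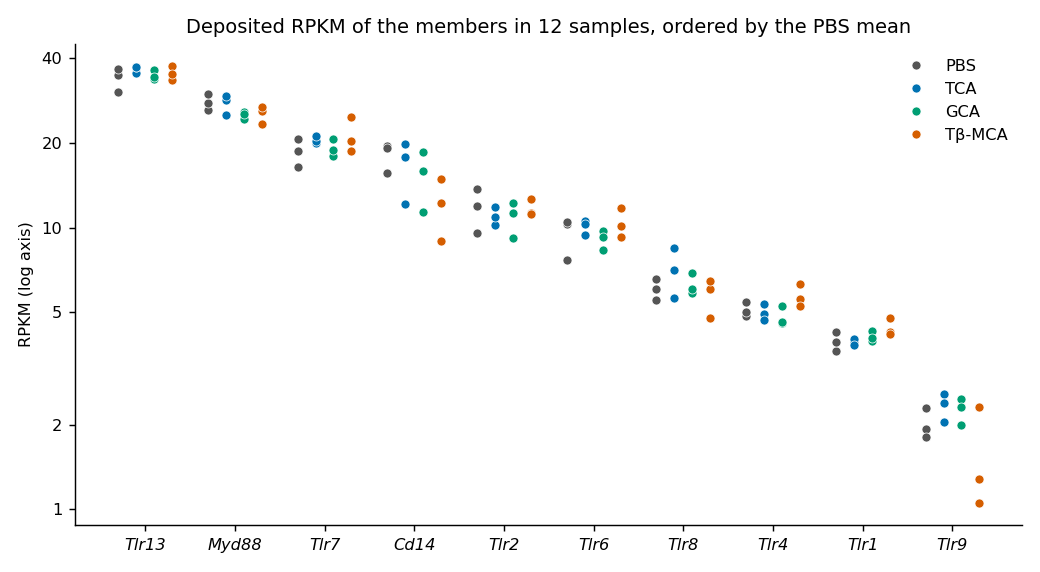
Deposited RPKM (log axis) of the 10 members in each of 12 samples, with members ordered by their PBS mean and points coloured by group. Tlr13 (30.2 to 37.5 RPKM) is on top and Tlr9 (1.05 to 2.57 RPKM) at the bottom in every group, and the lowest points of Cd14 and Tlr9 belong to Tβ-MCA.

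The spread between samples differed among the members. Levels of the same gene were compared as CPM, counts scaled to TMM-normalized library sizes. Over all 12 samples, the highest CPM was 1.20 times the lowest for Tlr13, 1.24 times for Tlr1, 1.31 times for Myd88, 1.32 times for Tlr4, 1.42 times for Tlr7, 1.45 times for Tlr6 and 1.48 times for Tlr2. The wider members were Tlr8 at 1.81 times, Cd14 at 2.26 times and Tlr9 at 2.49 times. The median over 7488 genes whose mean levels fell in the range of the members was 1.35 times, which 6 of the 10 members exceeded. The lowest value of Cd14, Tlr8, Tlr9 and Myd88 was in the same library, Tβ-MCA replicate 3.

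Whether a bile acid alters TLR transcripts was asked by setting each group against PBS. No member passed an adjusted p of 0.05 in edgeR's quasi-likelihood test with any bile acid, where 7.62% of the genes tested were called for Tβ-MCA and 0% for TCA and for GCA. No member reached the thresholds of the study (unadjusted p under 0.05 and at least 2-fold) either, which 2.95% of the genes met for Tβ-MCA, 0.465% for TCA and 0.531% for GCA. At an unadjusted p under 0.05 alone, there were 2 members (Cd14 and Myd88) for Tβ-MCA, 0 for TCA and 1 (Myd88) for GCA, against 24.9%, 3.26% and 3.53% of all genes. With Tβ-MCA, 1 member was called by DESeq2 (Cd14) and 0 by limma on log2(RPKM + 1), and with TCA and GCA both called 0. The main test does not use the replicate numbers. With a replicate block, edgeR called 1 member for Tβ-MCA (Cd14, adjusted p 0.00862). The shares of all genes called by DESeq2, by limma and with the block are not given here, so these counts lack a base rate.

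The median size of the log2 fold change, without regard to sign, was 0.12 over the members and 0.19 over all genes for Tβ-MCA, 0.10 and 0.09 for TCA, and 0.08 and 0.10 for GCA. Of the 10 members, 5 lay above and 5 below PBS with each bile acid. A p that misses the threshold does not show that the levels were equal, and the intervals give what the data allow.

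**Figure D2:**
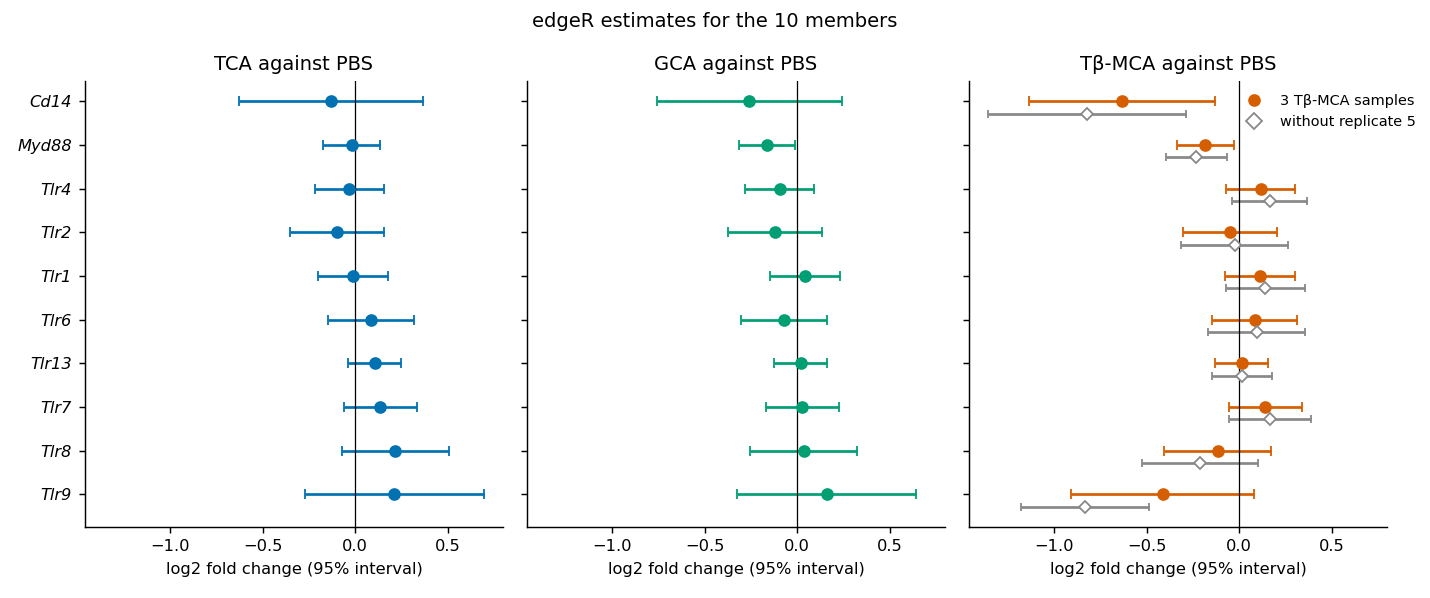
Log2 fold change against PBS with its 95% interval from edgeR for each member, for TCA, GCA and Tβ-MCA; grey diamonds repeat Tβ-MCA without its replicate 5. The intervals of TCA all cross 0, and with Tβ-MCA the points of Cd14 (-0.63) and Tlr9 (-0.41) lie farthest to the left.

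Cd14, the co-receptor that passes lipopolysaccharide to TLR4, had the largest log2 fold change of the members with Tβ-MCA. The gene spans chr18:36725074-36726736 on the minus strand. It stood at 25.2, 31.0 and 30.2 CPM in PBS replicates 3, 5 and 6, and at 13.8, 18.7 and 23.1 CPM in replicates 3, 4 and 5 of Tβ-MCA. All samples of Tβ-MCA were below all samples of PBS. With TCA the values were 19.7, 31.3 and 27.9 CPM, and with GCA 18.1, 24.4 and 29.5 CPM, and both groups overlapped PBS. Within each group, the sample numbered 3 had the lowest Cd14 level.

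The log2 fold change of Cd14 with Tβ-MCA was -0.63 ± 0.23 (SE), a 0.645-fold level with a 95% interval of 0.455 to 0.915. Its adjusted p was 0.115, and it was 0.0175 with DESeq2 and 0.0400 without Tβ-MCA replicate 5, where the log2 fold change was -0.82. With TCA and GCA the log2 fold changes were -0.13 and -0.26, with intervals of 0.647 to 1.29-fold and 0.591 to 1.18-fold. Of the members, Cd14 and Myd88 were those whose Tβ-MCA samples did not overlap PBS, as was the case for 27.0% of all genes. In bulk samples, fewer cells of a type and less RNA per cell cannot be told apart.

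Myd88, the adaptor shared by the receptors, had 69.0, 71.7 and 76.9 CPM in the PBS samples, 58.9, 64.7 and 68.0 CPM in the samples of Tβ-MCA (in the same replicate order), and 63.8, 64.8 and 66.0 CPM in the GCA samples. Both treated groups lay wholly below PBS, while TCA (66.5, 72.9 and 75.2 CPM) overlapped it. GCA did not overlap PBS for Myd88 alone among the members, and for 9.55% of all genes; for TCA, 0 members and 9.67% of all genes did not overlap.

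The log2 fold change of Myd88 was -0.18 ± 0.07 with Tβ-MCA (0.792 to 0.979-fold) and -0.16 ± 0.07 with GCA (0.804 to 0.994-fold). The adjusted p values were 0.126 and 0.999, and without Tβ-MCA replicate 5 the first became 0.0491. Acaa1a, whose span overlaps that of Myd88 on the other strand, had 64.2 to 70.4 CPM in PBS, 68.5 to 81.4 CPM in Tβ-MCA and 58.4 to 74.2 CPM in GCA. The part of shared reads in the Myd88 values was not tested.

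Tlr9 was low in part of the Tβ-MCA group. The PBS samples had 6.89, 6.33 and 7.96 CPM, and those of Tβ-MCA had 3.59, 4.32 and 7.95 CPM (replicates 3, 4 and 5). Replicates 3 and 4 lay below every other sample of the series, and replicate 5 lay within the range of PBS. With TCA the values were 7.29, 8.94 and 8.26 CPM, and with GCA 8.73, 6.82 and 8.09 CPM.

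Over the 3 Tβ-MCA samples the log2 fold change of Tlr9 was -0.41 ± 0.23, with an adjusted p of 0.288 and an interval of 0.533 to 1.06-fold. Without replicate 5 it was -0.83 ± 0.16 with an adjusted p of 0.00241 (0.441 to 0.713-fold). With replicates 3 and 4 left out in place of replicate 5 it was 0.17, and the lone sample was then assumed to vary like the other groups. Without replicate 5, 3 members were called lower (Tlr9, Cd14 and Myd88) and 0 higher, while 18.0% of 17131 genes were called, 9.44% lower and 8.52% higher. No member then met the thresholds of the study, which 5.61% of genes did. For Tlr9, Cd14 and Myd88, replicate 5 had the highest level of the Tβ-MCA samples, so leaving it out lowers their fold changes. These calls are therefore no separate support for a lower level.

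**Figure D3:**
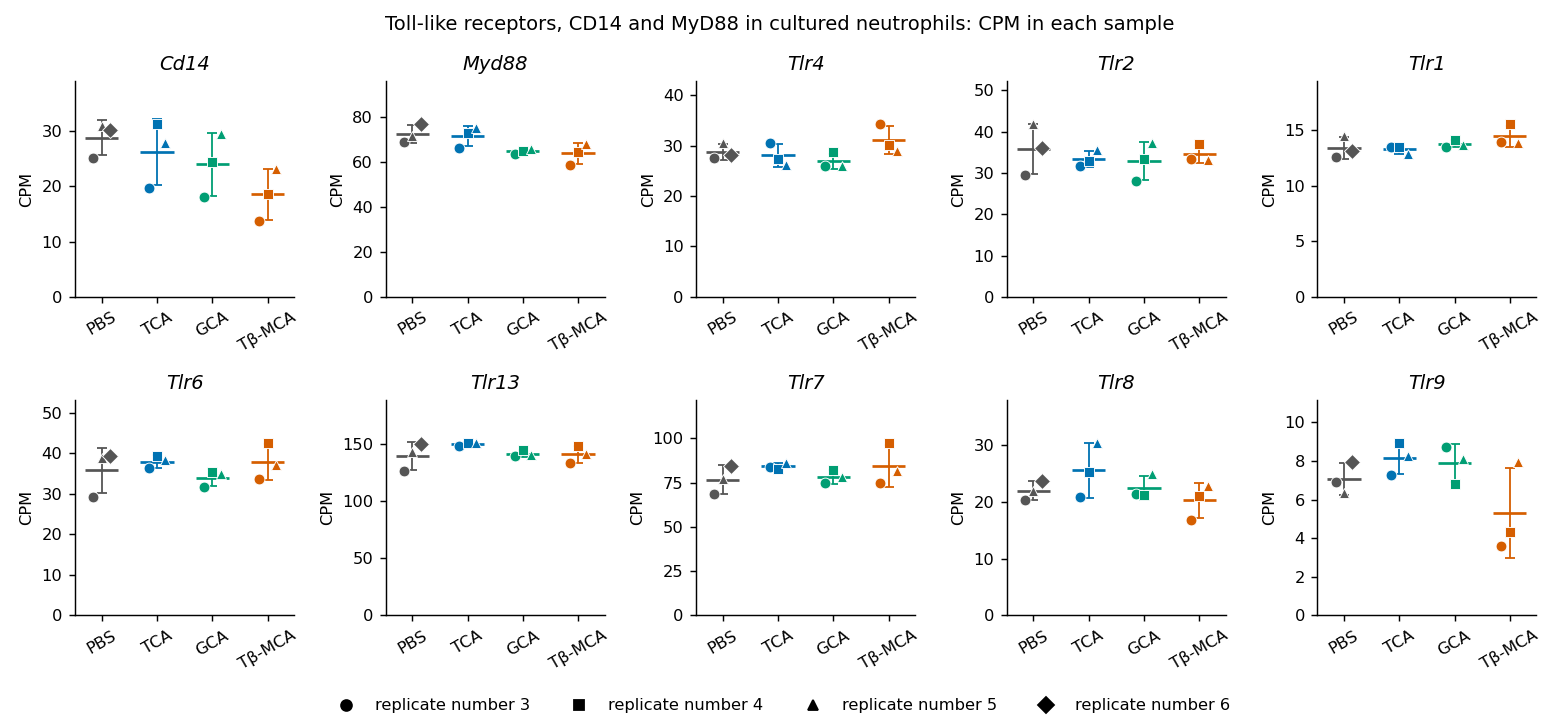
CPM of each member in each sample by group, with the group mean (bar), its SD (error bar) and a symbol for each replicate number; every axis starts at 0. Groups overlap for most members, Cd14 and Myd88 in Tβ-MCA lie below PBS, and Tlr9 splits Tβ-MCA into 3.59 and 4.32 CPM against 7.95 CPM.

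The other endosomal receptors did not pass the test either. Tlr13 had 126, 143 and 150 CPM in PBS, 149, 151 and 152 CPM with TCA, 134, 149 and 141 CPM with Tβ-MCA and 140, 145 and 141 CPM with GCA. Its interval with Tβ-MCA was 0.915 to 1.11-fold. Tlr7, which binds single-stranded RNA, had a mean of 76.8 ± 8.03 CPM in PBS, 84.3 ± 1.80 with TCA, 78.3 ± 3.83 with GCA and 84.6 ± 11.8 with Tβ-MCA.

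Tlr8, the neighbour of Tlr7, had 22.0 ± 1.70 CPM in PBS, 25.5 ± 4.80 with TCA, 22.5 ± 2.11 with GCA and 20.3 ± 3.10 with Tβ-MCA. The Tlr7 and Tlr8 groups overlapped PBS with every bile acid. With Tβ-MCA the log2 fold change was 0.14 for Tlr7 (0.961 to 1.26-fold) and -0.12 for Tlr8 (0.754 to 1.13-fold), and the latter was 0.05 with Tβ-MCA replicates 3 and 4 left out.

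No surface receptor passed the test with any bile acid. Tlr4 had 28.7 ± 1.56 CPM in PBS, 28.1 ± 2.27 with TCA, 26.9 ± 1.51 with GCA and 31.1 ± 2.80 with Tβ-MCA. Tlr2 had 35.8 ± 6.13 CPM in PBS and means between 32.9 and 34.5 CPM with the bile acids. The TLR2 partners Tlr1 and Tlr6 had 13.4 ± 0.978 and 35.8 ± 5.59 CPM in PBS, and the means with the bile acids were 13.3 to 14.4 CPM for Tlr1 and up to 38.0 CPM for Tlr6. With Tβ-MCA the intervals were 0.952 to 1.23-fold for Tlr4, 0.810 to 1.15-fold for Tlr2, 0.947 to 1.23-fold for Tlr1 and 0.902 to 1.24-fold for Tlr6. No interval of a surface receptor reached a 2-fold change in either direction, with any bile acid.

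The transcripts for lipopolysaccharide recognition were also set against each other. The Tlr4 to Cd14 ratio of RPKM was 0.263 to 0.310 in PBS and 0.354 to 0.701 in Tβ-MCA, without overlap, and it was 0.248 to 0.439 with TCA and 0.249 to 0.406 with GCA. The Cd14 levels given above enter this ratio, so it is not a separate result. Ly96, which encodes the lipopolysaccharide-binding partner MD-2 of TLR4, was higher with Tβ-MCA. Lbp, the lipopolysaccharide-binding protein, was lower, and both are described among the pathway genes.

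Monocyte and macrophage markers were also low in Tβ-MCA. The summed level of the 12 monocyte and macrophage markers was 1276, 1344 and 1355 CPM in the PBS samples and 434, 563 and 1082 CPM in the samples of Tβ-MCA. It was 1136, 1369 and 1382 CPM with TCA and 1225, 989 and 1330 CPM with GCA. None of the 12 markers was under 3 counts in all samples of a group.

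All of these 12 markers were below PBS with Tβ-MCA, and 1 passed the test (Ly6c2, log2 fold change -0.94, adjusted p 0.0353). DESeq2 called 4 lower. Without Tβ-MCA replicate 5, 9 of the 12 were called lower, with log2 fold changes of -4.15 for the chemokine receptor Ccr2 and -3.06 for F13a1. Of all genes, 3.18% were called lower in the main test and 9.44% without that replicate. Ccr2 had 37.3 to 51.2 CPM in PBS and 2.03, 2.70 and 29.2 CPM in replicates 3, 4 and 5 of Tβ-MCA. Tβ-MCA replicates 3 and 4 were the lowest libraries for Tlr9 and for the summed monocyte markers, and the part of monocytes in the TLR values was not tested.

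Further marker lists were compared in the same way, and 0 markers of any list were called with TCA. With Tβ-MCA 3.18% of all genes were called lower in the main test and 9.44% without Tβ-MCA replicate 5. The share for DESeq2 is not given here. Dendritic cell markers (10 genes) summed to 118 to 141 CPM in PBS, 62.1 and 70.1 CPM in replicates 4 and 3 of Tβ-MCA and 107 CPM in replicate 5, with Xcr1 under 3 counts in all PBS, TCA and Tβ-MCA samples. Of these 0 were called, and 2 were called lower by DESeq2 and 2 (Irf8 and Tcf4) without Tβ-MCA replicate 5. Eosinophil markers (7 genes) summed to 151 to 261 CPM in PBS and 56.8 to 134 CPM in Tβ-MCA, and 1 of 7 was called lower (Siglecf), against 3 by DESeq2 and 4 without Tβ-MCA replicate 5 (Siglecf, Ear1, Ear2 and Prg2). B cell markers (8 genes) summed to 11.2 to 18.4 CPM in PBS and 8.48 to 10.9 CPM in Tβ-MCA, with 1 called lower and Igll1 under 3 counts in all samples of both groups. Basophil and mast cell markers (6 genes) summed to 44.7 to 71.3 and 45.3 to 68.0 CPM, and 0 were called. Neutrophil markers themselves were at 49701 to 61349 CPM in PBS and 39881 to 45292 CPM in Tβ-MCA, with 5 of 12 called lower (Ly6g, S100a8, Lcn2, Camp and Mmp9), against 10 by DESeq2 and 9 without Tβ-MCA replicate 5. Csf3r, the receptor for G-CSF, had a log2 fold change of 0.05. The part of these lists in the TLR values was not tested.

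**Figure D4:**
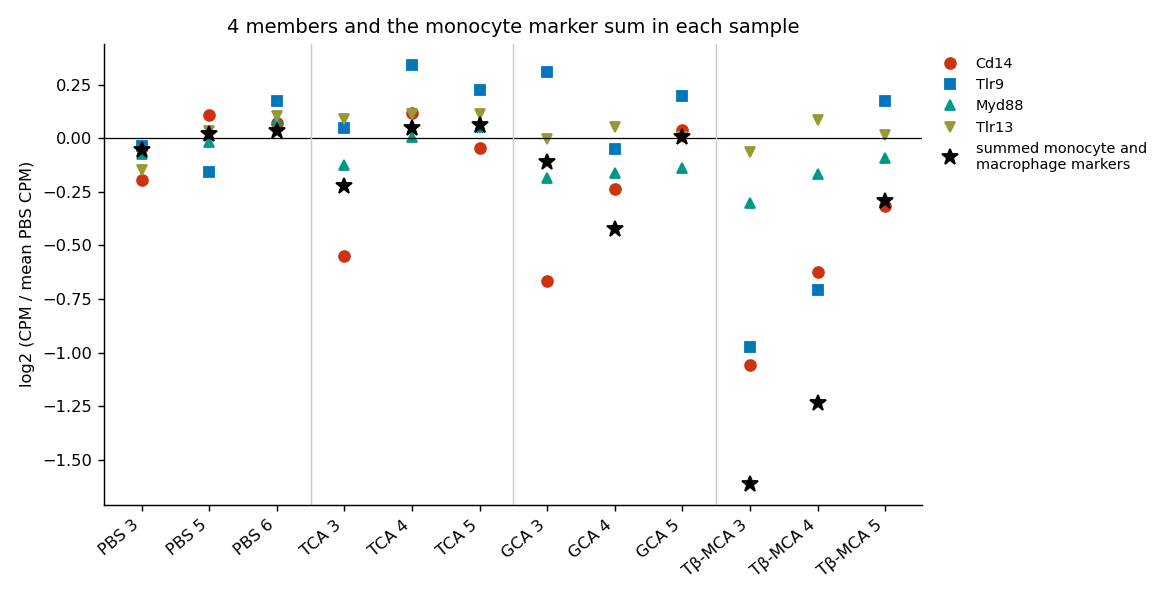
Log2 ratio of CPM to the mean of PBS in each sample for Cd14, Tlr9, Myd88 and Tlr13 and for the sum of 12 monocyte and macrophage markers (stars). The stars and Tlr9 are lowest in Tβ-MCA replicates 3 and 4, Tlr13 stays near 0 throughout, and Cd14 is lowest in Tβ-MCA replicate 3 (13.8 CPM), followed by GCA replicate 3 (18.1 CPM).

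Bile acids were also compared with each other. Tβ-MCA and TCA are both taurine conjugates, the former of a muricholic and the latter of cholic acid, and the sources conflict on whether their doses matched. In edgeR no member passed an adjusted p of 0.05 between them (3.51% of all genes did, 2.22% higher and 1.29% lower) or the thresholds of the study (2.79%). Other settings differed: DESeq2 called 1 member lower with Tβ-MCA (Tlr9, adjusted p 0.0487). Without a filter 3 were called lower (Cd14, Tlr8 and Tlr9), and with a replicate block 2 (Cd14 and Tlr8). The shares of all genes called at these settings are not given here. Calls among further TLR pathway genes rose there too, from 3 to 6 with DESeq2, 13 without a filter and 10 with the block. At an unadjusted p under 0.05 there were 3 members, all lower with Tβ-MCA, and 22.2% of all genes. These were Tlr9 (log2 fold change -0.62, 0.461 to 0.912-fold, adjusted p 0.126), Tlr8 (-0.33, 0.649 to 0.969-fold, adjusted p 0.160) and Myd88 (-0.16, 0.803 to 0.992-fold, adjusted p 0.191).

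The Tlr8 samples with TCA had 20.8, 25.4 and 30.4 CPM, against 16.8, 21.1 and 22.8 CPM with Tβ-MCA, so the groups overlapped. Groups did not overlap for Tlr1, higher with Tβ-MCA (13.9, 15.5 and 13.9 CPM against 13.5, 13.5 and 12.8 CPM), and for Tlr13, lower with Tβ-MCA, as for 25.3% of all genes. For Tlr13 the groups nearly touched, with a highest Tβ-MCA sample of 148.7 CPM and a lowest TCA sample of 148.8 CPM. Without Tβ-MCA replicate 5, Tlr9 was called lower than with TCA (log2 fold change -1.05, adjusted p 0.000561), and it then also met the thresholds of the study. The sample left out had the highest Tlr9 level of Tβ-MCA, so this call is no separate support. At that setting 15.3% of all genes were called, 7.17% higher and 8.12% lower, and 5.45% met the thresholds of the study.

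GCA and TCA are the glycine and taurine conjugates of cholic acid, and both were used at 200 μM. No member passed an adjusted p of 0.05 between them, nor did any of the genes tested (0%), and at an unadjusted p under 0.05 there were 0 members and 2.46% of all genes. The thresholds of the study were met by 0 members and 0.442% of all genes. DESeq2 and limma called 0 members as well. The level with GCA was below that with TCA for 9 of the 10 members, Tlr1 being the exception, with log2 fold changes between -0.18 (Tlr8) and 0.05 (Tlr1).

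For 4 members all GCA samples lay below all TCA samples, as they did in either direction for 8.0% of all genes. These were Tlr6 (31.6, 35.4 and 35.0 CPM against 36.3, 39.3 and 38.3 CPM), Tlr7 (74.6, 82.3 and 78.0 against 83.7, 82.9 and 86.3 CPM), Tlr13 and Myd88. Members were measured in the same libraries and are not independent. The intervals of the difference were 0.763 to 1.05-fold for Tlr6, 0.810 to 1.07-fold for Tlr7, 0.854 to 1.04-fold for Tlr13 and 0.815 to 1.01-fold for Myd88, so a difference as large as 1.5-fold lay outside each of them.

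Members varied together over the 12 samples in part. As a description over samples that share treatments and preparations, Pearson's r of log2 CPM was 0.88 between Tlr6 and Tlr7, 0.84 between Tlr6 and Tlr13, 0.83 between Tlr7 and Tlr13 and 0.84 between Cd14 and Myd88. Tlr4 ran against Tlr9 (-0.82) and Tlr8 (-0.74). The genes most like Cd14 among all tested were Bfar (r = 0.98), Nme2 (0.97) and Sfxn5 (0.96). Those most like Tlr9 were Nuak1, Cwc22 and Ubtf (each 0.97), and those most like Myd88 were Abce1, Slc19a1 and Cdc40 (each 0.92).

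Further genes of the TLR pathway were examined from a list of 60, of which 57 were tested. The untested ones were the receptors Tlr3 and Tlr11, with at most 12 and 6 counts in a sample, and the adaptor Sarm1. With Tβ-MCA 1 gene was called higher and 6 were called lower than PBS, where 4.44% of all genes were called higher and 3.18% lower, and 50 did not pass. The list had a median log2 fold change of -0.11, and all genes tested one of 0.0041. With TCA and GCA 0 genes were called, and DESeq2 and limma called 0 as well. At an unadjusted p under 0.05 there were 7 and 5 of the 57, against 3.26% and 3.53% of all genes.

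Chaperones of the receptors were among the lower genes. Hsp90b1 encodes gp96, the endoplasmic reticulum chaperone that folds TLRs, and had 1096, 1064 and 1075 CPM in PBS and 662, 682 and 922 CPM in Tβ-MCA (log2 fold change -0.51, adjusted p 0.0211). Cnpy4, a chaperone that regulates surface TLRs, fell from 46.4, 41.9 and 41.0 to 27.9, 28.4 and 37.8 CPM (-0.46, adjusted p 0.0294). Unc93b1, which escorts nucleic acid sensing TLRs to endosomes, fell from 450, 451 and 421 to 367, 372 and 402 CPM (-0.21, adjusted p 0.0428). The remaining 3 of 6 tested folding and trafficking genes were above PBS without passing the test.

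Of the 4 co-receptor and ligand carrier genes tested, 1 rose and 1 fell, while Cd36 (log2 fold change -0.71) and Ly86 (-0.43) did not pass. Ly96 had 2.98, 4.50 and 3.78 CPM in PBS and 5.03, 8.53 and 6.72 CPM in Tβ-MCA (log2 fold change 0.85, adjusted p 0.0366). Lbp, the lipopolysaccharide-binding protein, fell from 25.9, 21.4 and 20.3 to 14.1, 16.8 and 18.7 CPM (-0.44, adjusted p 0.0350). Among the inhibitors, the MAPK phosphatase Dusp1 fell from 499, 566 and 463 to 274, 285 and 400 CPM (-0.67, adjusted p 0.0225), and the NF-κB inhibitor Nfkbia from 414, 433 and 409 to 336, 347 and 363 CPM (-0.26, adjusted p 0.0347). The other 10 of 12 inhibitors did not pass.

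No gene passed among the 4 other adaptors, the 17 kinases and ubiquitin ligases of the cascade, the 8 endolysosomal proteases and nucleases, the 3 other receptors and the 3 transcription factors tested. Without Tβ-MCA replicate 5, 10 genes of these groups were called lower (Tirap, Ticam2, Traf3, Pld4, Ctsl, Ctss, Lgmn, Tlr5, Cd180 and Irf5). The kinase and ubiquitin group had log2 fold changes between -0.33 and 0.10. The protease and nuclease group ranged more widely, from -0.99 to 0.01, with 7 of 8 below PBS. Against TCA, 3 genes of the list were called lower with Tβ-MCA and 0 higher, where 1.29% of all genes were called lower and 2.22% higher. These were Dusp1 (-0.75, adjusted p 0.0323), Hsp90b1 (-0.43, adjusted p 0.0449) and Ctsl, the lysosomal protease cathepsin L that cleaves endosomal TLRs, which had 80.5, 85.7 and 84.4 CPM with TCA and 47.9, 49.0 and 71.4 CPM with Tβ-MCA (-0.57, adjusted p 0.0411).

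These calls depended on the samples in the fit. Without Tβ-MCA replicate 5, 1 gene of the list was called higher and 16 lower than PBS, at a setting where 8.52% of all genes were called higher and 9.44% lower. Without PBS replicate 3 or 5, or Tβ-MCA replicate 3 or 4, 0 were called, and 1 was called without PBS replicate 6. In Tβ-MCA replicate 5 the levels of Hsp90b1, Cnpy4, Lbp, Dusp1, Nfkbia and Unc93b1 were the nearest to PBS of the 3 samples, and monocyte markers were nearest to PBS in the same sample. Ly96, the gene called higher, was nearest to PBS in Tβ-MCA replicate 3 instead. The part of monocytes in these values was not tested.

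Target genes that TLR signaling induces were taken from a list of 22, of which 20 were tested. Il12b had too few counts, and Ifnb1 was not analysed here. With Tβ-MCA 1 was called higher and 6 lower, against 4.44% and 3.18% of all genes, and 3 met the thresholds of the study, each lower, against 2.95% of all genes. The list had a median of -0.48 on the log2 scale, and all genes tested one of 0.0041. The chemokine Ccl3 fell from 92.1, 113 and 93.6 CPM in PBS to 63.9, 65.5 and 79.6 CPM (-0.51, adjusted p 0.0208), and Ccl4 from 3.27, 4.68 and 3.05 to 1.47, 2.51 and 1.98 CPM (-0.88, adjusted p 0.0358). Nfkbiz, the nuclear IκBζ, fell from 63.1, 66.2 and 65.2 to 45.5, 48.6 and 56.2 CPM (-0.37, adjusted p 0.0266).

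The acute phase gene Saa3 fell from 131, 118 and 106 to 85.4, 70.6 and 74.4 CPM (-0.63, adjusted p 0.0298). The cytokine subunit Il12a fell from 4.96, 7.12 and 4.69 to 3.11, 3.29 and 4.34 CPM (-0.64, adjusted p 0.0470). The neutrophil-attracting chemokine Cxcl1 fell from 1.03, 1.18 and 0.809 to 0.299, 0.486 and 0.321 CPM (-1.43, adjusted p 0.0484), a level of few counts. The costimulatory receptor Cd40 rose from 1.12, 1.0 and 1.08 to 1.82, 2.35 and 1.74 CPM (0.89, adjusted p 0.0379), and its counts in PBS were few as well.

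Saa3 lay below PBS with the other bile acids too, at 51.7, 75.0 and 82.3 CPM with TCA and 90.9, 78.4 and 88.8 CPM with GCA. Its log2 fold changes were -0.77 and -0.46, and neither passed the adjusted p in edgeR. All comparisons with PBS share the PBS samples. With TCA and GCA edgeR called 0 target genes, and DESeq2 called 1 and 0. At an unadjusted p under 0.05 there were 2 and 4 target genes, against 3.26% and 3.53% of all genes.

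Against TCA, 1 target gene was called lower with Tβ-MCA (1.29% of all genes were) and 0 higher (2.22%). This was Ptgs2, which encodes cyclooxygenase 2, at 0.744, 1.33 and 0.975 CPM with TCA and 0.120, 0.216 and 0.375 CPM (log2 fold change -2.08, adjusted p 0.0497). The target gene calls against PBS were 1 higher and 8 lower without Tβ-MCA replicate 5, where 8.52% and 9.44% of all genes were called. They fell to 0 without PBS replicate 3 or 5 or Tβ-MCA replicate 3 or 4, and to 1 without PBS replicate 6.

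**Figure D5:**
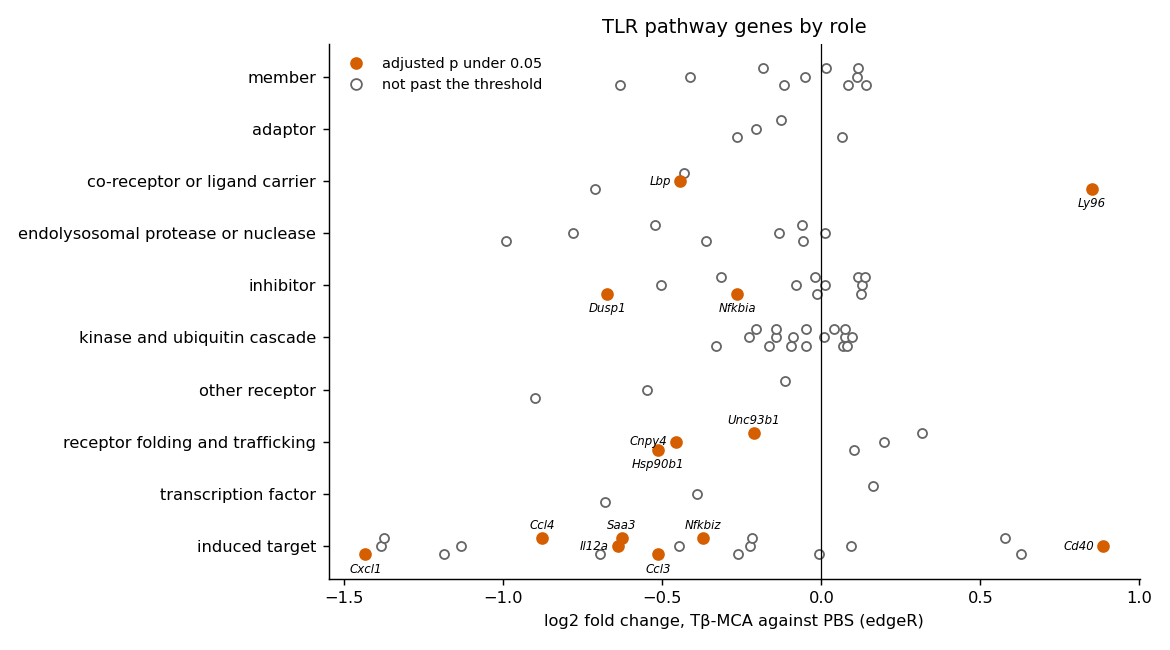
Log2 fold change of Tβ-MCA against PBS from edgeR for the 10 members, 57 further TLR pathway genes by role and 20 induced target genes; filled points passed an adjusted p of 0.05 and are named. None of the members or kinases is filled, Cd14 (-0.63) and Tlr9 (-0.41) being the members farthest to the left, and the named points are folding factors, ligand carriers, inhibitors and target genes, with Ly96 and Cd40 to the right.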

How the data were processed

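Per the labels, Ly6G-positive mouse bone marrow neutrophils were sequenced with a stranded mRNA kit. According to the submitters' processing notes, Trimmomatic 0.36, STAR 2.5.3a, featureCounts and Subread 1.5.1 were used with GRCm38. The authors deposited raw counts per gene and RPKM values, the counts divided by merged exon length and library total (recomputed values differed by at most 1.3e-06, relative). Strand setting, read pairs and duplicates are not given in the sources used here.

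The columns named GA were taken as the GCA samples. Counts were normalized by TMM, filtered with filterByExpr by group (16761 genes) and tested with edgeR 4.0.16 (R 4.3.3), with the robust quasi-likelihood test on all 12 samples and no replicate term. P-values were adjusted by Benjamini-Hochberg over all genes tested. CPM uses TMM library sizes, and log2 CPM a prior count of 2. Alternatives were DESeq2 1.42.0, total library size, no filter, only the groups compared, a replicate block, limma 3.58.1 on log2(RPKM + 1) (mean RPKM from 0.5 upwards), and each sample left out. Fits without samples numbered 3 and without Tβ-MCA replicates 3 and 4 were chosen after seeing the data. The fit without Tβ-MCA replicate 5 was among the planned fits with each sample left out. It was singled out for the text because that sample stood apart in these data. Fewer than 3 counts (0.0725 to 0.0916 CPM) were treated as not detectable, which covers counting error only. The members, the gene lists and the tests were chosen with earlier results of these data known. The text names all members, list genes with an adjusted p under 0.05 (at most 8 per list and comparison), marker genes, and the 3 genes most like each of 3 members. The script was tested on simulated data.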

Additional observations from a re-analysis of the deposited data

Results flagged for a closer look

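Groups of 3 samples were not tested for outlying samples. The results below are genes whose response differed between bile acids, in that the difference between Tβ-MCA and TCA passed an adjusted p of 0.05 in edgeR. The sources conflict on the dose of Tβ-MCA, so dose and compound cannot be told apart. The log2 fold changes of Tβ-MCA against TCA were -0.75 for Dusp1, -0.57 for Ctsl, -0.43 for Hsp90b1 and -2.08 for Ptgs2. No TLR, nor Cd14 or Myd88, differed in this way. Without any 1 sample of either group other than Tβ-MCA replicate 5, 0 genes of either list were called in this comparison. The counts of Ptgs2 were few, at 0.120 to 0.375 CPM with Tβ-MCA.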

How the results depend on the processing

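Counts of calls depended on the setting where Tβ-MCA was compared, and the cause was not tested except where stated. Shares of all genes called are given only for the main test and without Tβ-MCA replicate 5. Against PBS, calls among the members were 0 by the main test, 1 with DESeq2 and 1 without a filter (Cd14 in both), and 0 to 3 with each sample left out. Against TCA they were 0, 1 with DESeq2 (Tlr9), 3 without a filter (Cd14, Tlr8 and Tlr9) and 0 to 1 with each sample left out, and the count at the thresholds of the study was 0 to 1. Pathway calls against PBS (7) were 12 with DESeq2, 16 without a filter, 3 with limma and 0 to 17 with each sample left out. Against TCA (3) they were 6, 13, 0 and 0 to 13. Target calls against PBS (7) were 1 with limma and 0 to 9 with each sample left out, and against TCA (1) 5 with DESeq2, 7 without a filter, 0 with limma and 0 to 7. With only the 2 groups compared, and with Tβ-MCA replicates 3 and 4 left out, both lists had 0 calls in both comparisons, and fewer samples entered those fits. With the samples numbered 3 left out, calls were 0 for the pathway and 1 for the targets against PBS, and 0 for both against TCA. With TCA against PBS, target calls rose from 0 to 1 with DESeq2 and to 2 without a filter. Without a filter they rose from 0 to 3 for GCA against PBS and to 2 for GCA against TCA, and pathway calls to 1 in each. Total library size changed no count by over 1.5 times and put the median log2 fold change of all genes at 0.05 for Tβ-MCA against PBS.

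The replicate numbers were checked for pairing. Same-numbered samples of different groups had a mean correlation of deviations of 0.189 (0.0597 to 0.326 over 15 pairs), against -0.0716 over 39 other pairs. All 15 were positive, though not every pair exceeded 0.1. No source used here says what the numbers mark, so the main test had no replicate term. The summed basophil and mast cell markers were 71.3, 74.0, 68.0 and 75.5 CPM in the samples numbered 3 (PBS, TCA, Tβ-MCA and GCA). In the other samples they lay between 42.7 and 49.3 CPM. Whether same-numbered samples share a preparation could not be settled. With the replicate block, member calls were 1 against PBS (Cd14, log2 fold change -0.68, adjusted p 0.00862) and 2 against TCA (Cd14 and Tlr8), and against TCA the pathway and target calls were 10 and 8. The block turned the log2 fold change of Myd88 for TCA against PBS to 0.015 and that of Tlr7 for Tβ-MCA against TCA to -0.0021.

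Of 670 log2 fold changes of members under alternatives, 604 kept their sign and side of the threshold, 13 gained a call and 53 changed sign, and the latter had sizes of at most 0.17. With each sample left out, the log2 fold changes of TCA against PBS ranged from -0.28 to 0.038 for Cd14, -0.057 to 0.030 for Myd88, -0.056 to 0.049 for Tlr1, -0.22 to 0.026 for Tlr2, -0.098 to 0.015 for Tlr4 and -0.040 to 0.16 for Tlr6. Those of GCA against PBS ranged from -0.0015 to 0.10 for Tlr1, -0.048 to 0.074 for Tlr13, -0.24 to 0.0062 for Tlr2, -0.046 to 0.10 for Tlr7 and -0.045 to 0.093 for Tlr8. Those of Tβ-MCA against PBS ranged from -0.054 to 0.067 for Tlr13, -0.17 to 0.076 for Tlr2 and -0.041 to 0.16 for Tlr6. Those of GCA against TCA ranged from -0.31 to 0.037 for Cd14, -0.12 to 0.081 for Tlr2, -0.11 to 0.0043 for Tlr4 and -0.13 to 0.041 for Tlr9. Those of Tβ-MCA against TCA ranged from -0.0015 to 0.098 for Tlr2, -0.096 to 0.073 for Tlr6 and -0.11 to 0.088 for Tlr7. With the samples numbered 3 left out they were -0.037 for Tlr13 (GCA against PBS), -0.015 for Tlr13 (Tβ-MCA against PBS), 0.050 for Tlr2 (GCA against TCA), 0.031 for Tlr4 (GCA against TCA), -0.0083 for Tlr6 (TCA against PBS), 0.045 for Tlr6 (Tβ-MCA against TCA) and -0.012 for Tlr7 (GCA against PBS). With Tβ-MCA replicates 3 and 4 left out they were -0.0031 for Tlr2 (Tβ-MCA against TCA), -0.046 for Tlr7 (Tβ-MCA against TCA), 0.054 for Tlr8 (Tβ-MCA against PBS) and 0.17 for Tlr9 (Tβ-MCA against PBS). With limma they were 0.0085 for Tlr2 (Tβ-MCA against PBS) and 0.032 for Tlr6 (Tβ-MCA against TCA). With total library size it was 0.041 for Tlr6 (Tβ-MCA against TCA). With DESeq2 it was -0.00032 for Tlr7 (Tβ-MCA against TCA). Depth was not limiting for the members, the lowest of which had 120 counts, while Cxcl1, Ptgs2 and, in PBS, Cd40 had few counts.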
